A study of Mus musculus with 6 samples.

Results

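The proteasome genes of germinal centre B cells were taken by name: protein-coding genes whose symbol starts with Psm, a letter from a to g and a digit. The rule found 50 genes among the 55421 listed, and 48 of them had a mean of at least 10 normalized reads, the minimum for testing. The 50 comprise 14 constitutive subunits of the core particle, 3 immunoproteasome subunits, 17 subunits of the regulatory particle, 5 alternative activator genes, 1 inhibitor gene and 7 assembly chaperone genes. A further 2 are tissue-restricted core subunits, Psma8 of the testis and Psmb11 of the thymus. The last is Psmc3ip, which encodes a meiotic recombination factor and is no proteasome subunit despite its symbol.

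The proteasome is the protease that degrades ubiquitin-tagged proteins. Its core is a barrel of alpha and beta rings, in which 3 beta subunits (Psmb5, Psmb6 and Psmb7) cut peptide bonds, and the regulatory particle caps the barrel, unfolds substrates with its ATPases and removes ubiquitin. Lymphocytes and interferon-treated cells replace the cutting subunits with Psmb8 for Psmb5, Psmb9 for Psmb6 and Psmb10 for Psmb7. The resulting immunoproteasome produces many of the peptides shown on class I molecules of the major histocompatibility complex (MHC).

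RNA had been sequenced from GFP-positive spleen cells of C57BL/6 mice that carry the AID-GFP reporter, which was used to sort germinal centre B cells. All mice had been immunised 9 days earlier with NP(18)OVA, a hapten-coupled ovalbumin, given in alum. The wildtype group held 3 libraries and the SFR KO group 3, the latter with a deletion of 7 SLAM family receptor genes that begins in intron 1 of Cd244 and ends in exon 8 of Slamf6. The genes lost are Cd244, Ly9, Slamf7, Cd48, Slamf1, Cd84 and Slamf6, and the labels give no cell type restriction of the deletion. Whether the libraries come from different mice is not stated in the labels. The p-values therefore cover only variation among these libraries, which may be technical.

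Libraries held between 28269310 and 33053024 reads assigned to genes. The 7 deleted genes summed to between 10457 and 20669 normalized reads (reads divided by the size factor of the library) in wildtype and between 5.5 and 16.8 in SFR KO libraries. Germinal centre B cell markers were present in every library, with Bcl6, their defining transcription factor, at 13496 or more. T cell markers (Cd3e, Cd3d, Cd4 and Cd8a) summed to between 215.3 and 384.6 in wildtype and between 363.6 and 506.9 in SFR KO libraries, and none was at 0. Summed neutrophil and macrophage markers (S100a8, S100a9, Lyz2 and Csf1r) were highest in wildtype 1, at 4973.3 against 799.2 to 2363.9 in SFR KO libraries. Csf1r alone was highest in SFR KO 1, at 523.2 against 408.8 in wildtype 1. Red cell markers were highest in wildtype 1. Mki67, a proliferation marker, was lowest in SFR KO 1, at 42712 against 62044 or more in the others. Mitochondrial transcripts took 1.51% to 2.12% of normalized reads in wildtype libraries and 2.45% to 2.47% in SFR KO libraries. In sorted bulk cells, fewer cells of a type and less RNA per cell cannot be told apart.

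Start-site sequences from RefSeq (GRCm38.p6) were matched for 42 of the 50 genes. Psma8, Psmb1, Psmb2, Psmb7, Psmc3, Psmd3, Psmd7 and Psmg2 had no match. Bases before the start are printed for Psmb9, the gene with the widest difference between genotypes, for Psmb6, which it replaces, and for Psmb5, another constitutive cutting subunit. For Psmb5 the bases next to the start, which an annotated exon covers, are left out. The sequences hold 30 bases for Psmb9 and 100 for each of the others. Each is 5′ to 3′ on the strand of its gene, on chromosome 17 from 34187331 to 34187360 (minus strand), chromosome 11 from 70525257 to 70525356 (plus) and chromosome 14 from 54618023 to 54618122 (minus). Capitals mark a CCAAT box, read on the other strand, in Psmb9 and a TGACNNNGC match, the core of the antioxidant response element bound by the proteasome gene activator NRF1, in the others.
Psmb9: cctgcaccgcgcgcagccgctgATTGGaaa
Psmb6: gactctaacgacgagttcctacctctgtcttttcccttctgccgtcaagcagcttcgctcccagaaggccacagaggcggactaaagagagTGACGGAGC
Psmb5: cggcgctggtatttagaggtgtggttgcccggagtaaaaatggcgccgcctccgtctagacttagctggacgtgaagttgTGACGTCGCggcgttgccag

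Both strands of each window (250 bases before to 50 after a start) were searched for 4 motifs, whose matches may overlap. TGACNNNGC occurred in 6 of the 45 windows that these 42 genes have (13.3%) and in 12.4% of all 32851 windows, and CCAAT in 33.3% and 37.4%. The core of the interferon-stimulated response element, a pair of GAAA stretches 2 bases apart, occurred in 5 windows (11.1%, against 3.44% of all), those of Psmb3, Psmd4, Psmd9, Psme1 and Psmg4. TTCNNNGAA, the gamma-activated site, occurred in 6.67% and 8.30%. Psmb8 had a gamma-activated match, whereas the window of Psmb9 held neither interferon motif in these letters. In RefSeq, Psmb9 and Tap1, a subunit of the peptide transporter of class I presentation, start 225 bases apart and run in opposite directions, so their windows overlap.

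Core, immunoproteasome and regulatory particle transcripts were abundant, and the assembly genes found by the name rule were much lower. Levels between genes were compared as normalized reads per kilobase of the principal coding transcript (mean ± SD, n = 3 wildtype libraries). Psmb8 stood highest of all, at 10251 ± 675, ahead of the alpha subunit Psma7 at 7068 ± 86.1 and of Psme1, a subunit of the interferon-inducible activator PA28, at 6630 ± 371. The lowest of the core was Psma3 at 771.6 ± 8.66. Its principal transcript, also its longest, has 2846 bases, against 1239 for Psma5. Wildtype means were 2196 normalized reads for Psma3 and 2374 for Psma5, so their gap per kilobase rests largely on length. The constitutive cutting subunits ran from Psmb5 at 2903 ± 202 to Psmb6 at 4734 ± 281, and the lowest immunoproteasome gene was Psmb10 at 2832 ± 215. The lowest activator gene was Psme2b at 437.9 ± 21.4. Structural beta subunits lay close together, from Psmb3 at 4382 ± 189 to Psmb4 at 5389 ± 259. Psmb3 shares 55.8% of its 50-base windows with transcripts of other genes, so its counts are uncertain. Of the 50 genes, 9 share over 20%: Psma3, Psma4, Psma5, Psmb3, Psmb5, Psmd2, Psme2, Psme2b and Psmg3. In the regulatory particle, the levels ran from the ATPase Psmc6 at 1528 ± 52.7 to the lid subunit Psmd8 at 4377 ± 105, with the ATPase Psmc3 at 4253 ± 238 and the lid subunit Psmd11 at 1531 ± 2.43. Among Psmd1, Psmd2 and Psmd4, classed apart from the ATPases, Psmd1 was lowest (1798 ± 54.4) and Psmd4, a ubiquitin receptor, highest (3274 ± 70.4). Median levels were 4558 for the 14 constitutive core genes, 5102 for the immunoproteasome and 2546 for the regulatory particle. The assembly genes of the name rule had a median of 618.2, against 309.7 over all genes tested. Pomp, the proteasome maturation protein, falls outside that rule and stood at 3194 ± 63.8, above the regulatory particle median. The neighbouring pairs Psmc6 and Psmd11, and Psmd8 and Psmc3, differed by less than their spread. Transcript choice matters for these levels: per kilobase of the longest annotated transcript, Psmb9 stood at 2392 instead of 5102 and Psmb7 at 1736 instead of 4264. By that measure Psmb8 was still highest, at 8751. Psma7 stood at 4264 instead of 7068 and Psme1 at 3712 instead of 6630, both then below Psmb4 at 5389. Psmb3 stood at 2224 instead of 4382.

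**Figure D1:**
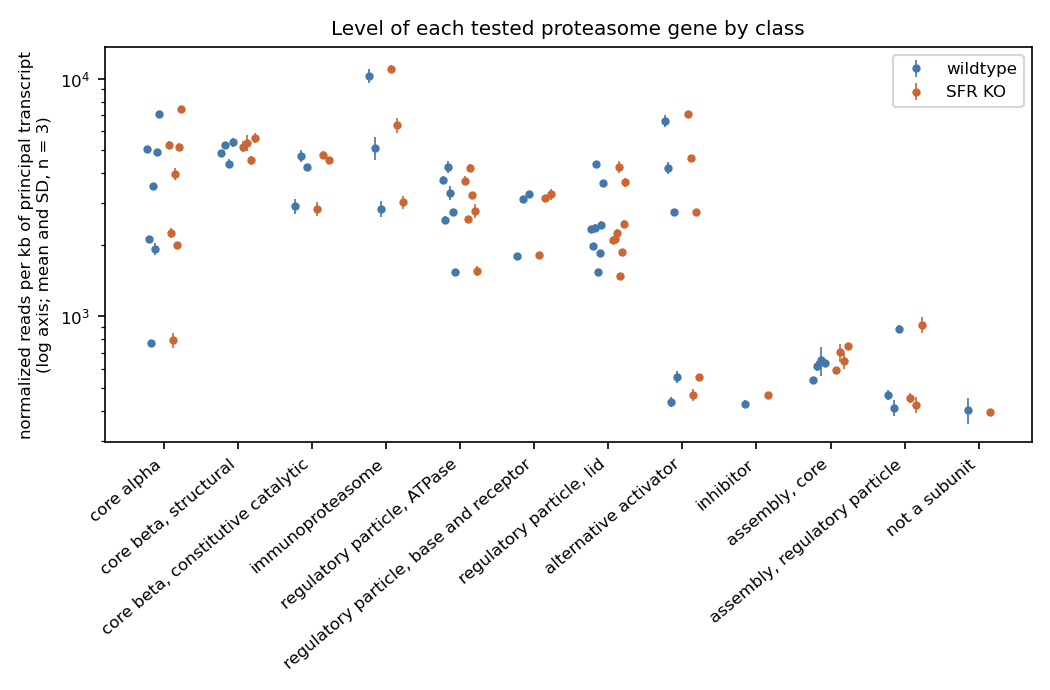
Normalized reads per kilobase of principal transcript (log axis) for each of the 48 tested proteasome genes, by class, as mean and SD of 3 wildtype (blue) and 3 SFR KO (orange) libraries. Psmb8 is highest at 10251 in wildtype, and the core assembly genes lie between 541.1 and 651.9.

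No proteasome gene passed the threshold (limma adjusted p under 0.05) in either direction, where 0.155% of all 13562 tested genes were called higher and 0.31% lower in SFR KO libraries. The edgeR quasi-likelihood test called 0 (0.0811% and 0.14% of all genes), and DESeq2 called 1 higher (1.36%) and 0 lower (2.2%). At an unadjusted limma p under 0.05, 4 were higher (8.33%, against 7.04% of all genes) and 1 was lower (2.08%, against 9.07%). Groups did not overlap for 9 genes that were higher (18.8%, against 9.78% of all genes) and 2 that were lower (4.17%, against 11.9%). The differences were small. The median log2 difference of SFR KO minus wildtype was 0.03 over the 48 genes and -0.0030 over all genes, 37 of 48 lay above 0 (77.1%, against 49.3% of all genes), and 38 lay within 0.1 of 0. Without SFR KO 1, the median was 0.02 and 28 of 48 lay above 0 (58.3%). Half-widths of the 95% limma intervals had a median of 0.13, so most single differences of the size seen here were not resolvable with 3 libraries a group.

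**Figure D2:**
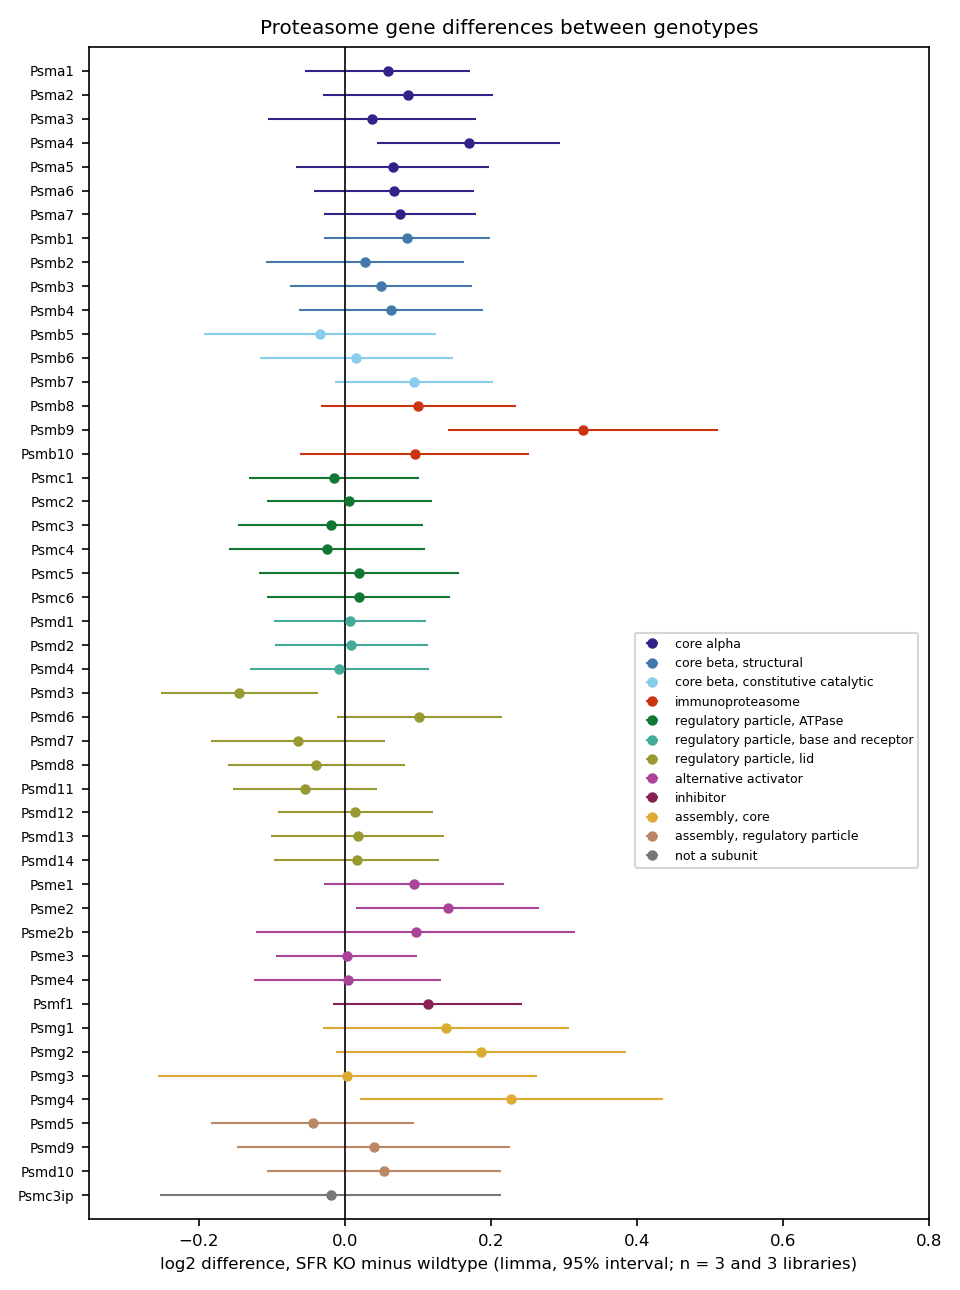
Log2 difference of SFR KO minus wildtype with its 95% limma interval (n = 3 libraries each) for the 48 tested proteasome genes, coloured by class. Psmb9 stands at 0.33, and the 17 regulatory particle genes lie between -0.14 and 0.10.

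Of the immunoproteasome genes, Psmb9 differed most. It replaces Psmb6 in the core and lies in the MHC class II region of chromosome 17 (34181987 to 34187764, minus strand). Wildtype libraries 1, 2 and 3 held 6374, 6548 and 7770 normalized reads and SFR KO libraries 1, 2 and 3 held 7991, 9229 and 8667. Every SFR KO library thus exceeded every wildtype library, with SFR KO 1 and wildtype 3 nearest to each other. The fold was 1.25 (log2 0.33 ± 0.08 SE, 95% interval 0.14 to 0.51), with a limma adjusted p = 0.115 and an edgeR adjusted p = 0.123, so the gene was not called.

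Other settings did call Psmb9. DESeq2 gave an adjusted p = 0.00389, and the authors' deposited table lists a log2 fold change of 0.32 with an adjusted p = 0.00374, in a table where 1.79% of 10360 genes with an adjusted p were called higher and 3.01% lower. With limma sample weights the adjusted p was 0.0240, where 2.0% of genes were called higher and 2.65% lower. Leaving out SFR KO 1 gave a log2 difference of 0.38 and an adjusted p = 0.0354, with 1.58% of genes called higher and 1.96% lower. Over all alternatives the log2 difference ran from 0.27 to 0.41 and the adjusted p from 0.00389 to 0.347, the highest without SFR KO 2.

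Psmb8, the counterpart of Psmb5, had 15590, 16690 and 17787 normalized reads in wildtype libraries and 17651, 18658 and 17332 in SFR KO libraries. The groups overlapped, and the log2 difference was 0.10 ± 0.06 (limma adjusted p = 0.445). Psmb10, the counterpart of Psmb7, had 3453, 3673 and 4013 and then 3756, 4250 and 3893. Its groups overlapped as well, at a log2 difference of 0.10 ± 0.07 (adjusted p = 0.547). All 3 immunoproteasome genes were highest in SFR KO 2 and lowest in wildtype 1.

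The constitutive cutting subunits had fitted differences near 0 or slightly above. Psmb5 had 2478, 2536 and 2817 normalized reads in wildtype libraries and 2703, 2580 and 2365 in SFR KO libraries, at a log2 difference of -0.03 (95% interval -0.19 to 0.12). Psmb6 had 3554, 3778 and 4003 and then 3977, 3784 and 3691, at 0.02 (-0.12 to 0.15). For both genes the ranges overlapped. Psmb7 had 4837, 4894 and 5107 in wildtype and 5436, 5276 and 5136 in SFR KO libraries, at 0.10 (-0.01 to 0.20). Its groups did not overlap, with SFR KO 3 just above wildtype 3, and its limma adjusted p was 0.377. Psmb7 overlaps Nek6, a kinase gene on the opposite strand. Psmb5 shares 57.1% of its 50-base windows with transcripts of other genes, mostly the model Gm3375, so its counts are uncertain.

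**Figure D3:**
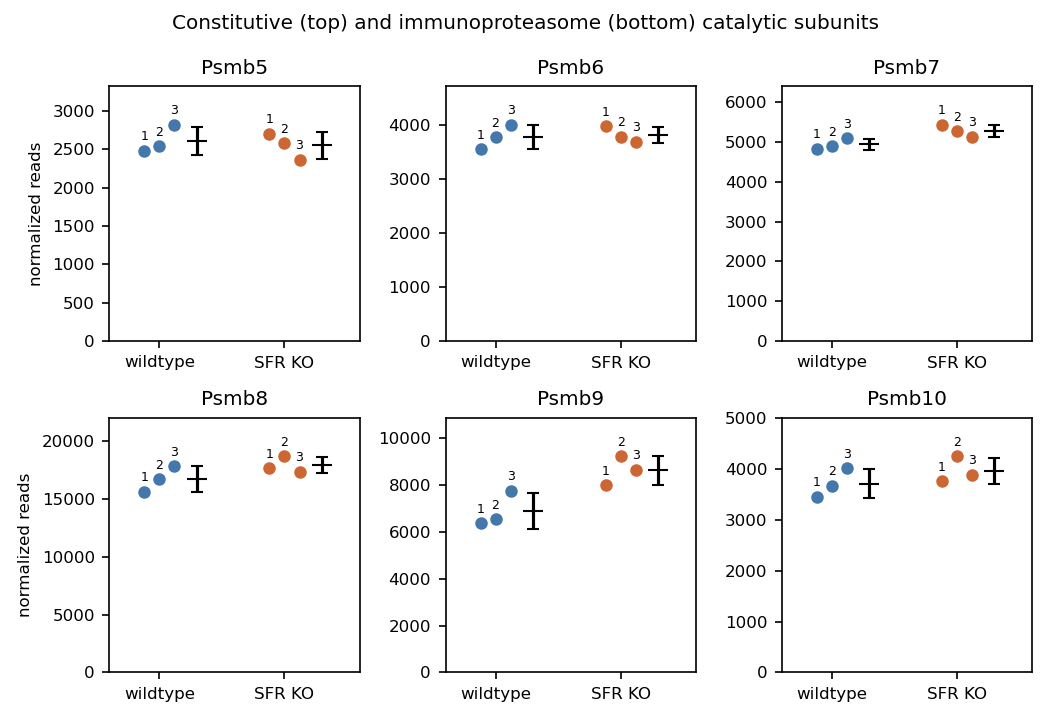
Normalized reads (linear axis from 0) of the constitutive (top) and immunoproteasome (bottom) cutting subunits in each library, numbered by replicate, with the mean and SD of 3 libraries as a black mark. Only Psmb9, at 7991 to 9229 against 6374 to 7770, and Psmb7, at 5136 to 5436 against 4837 to 5107, have groups that do not overlap.

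Set against its constitutive counterpart within each library, which removes library scaling, Psmb9 was higher in SFR KO libraries. Its level per kilobase was 1.06, 1.02 and 1.15 times that of Psmb6 in wildtype libraries and 1.19, 1.44 and 1.39 times in SFR KO libraries, with no overlap. Psmb8 stood at 3.47, 3.63 and 3.49 times Psmb5 in wildtype and 3.61, 3.99 and 4.05 times in SFR KO libraries, with SFR KO 1 inside the wildtype range. For Psmb10 over Psmb7 the ratio averaged 0.664 ± 0.0318 (SD, n = 3) in wildtype and 0.665 ± 0.0509 (SD, n = 3) in SFR KO libraries, a difference far below the spread. These ratios reuse the reads given above, so they are no separate evidence. They are descriptions of chosen pairs and were not tested. Each moves with the transcript length used, but by the same factor in every library.

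The immediate neighbours of Psmb9 had smaller fitted differences; the gap to Psmb9 was not tested. Tap1, named for its shared start region, had 10075, 11271 and 12558 normalized reads in wildtype libraries and 11472, 12798 and 12765 in SFR KO libraries. Its groups overlapped, with 0.13 ± 0.08 as the log2 difference (limma adjusted p = 0.467). Tap2, the other transporter subunit, stood at 0.05 ± 0.07 (adjusted p = 0.779). Within wildtype, all 4 genes of this stretch (Psmb9, Tap1, Psmb8 and Tap2) were lowest in library 1 and highest in library 3, and within SFR KO all 4 were highest in library 2. In the GENCODE annotation, unlike the RefSeq starts given above, the spans of Psmb9 and Tap1 overlap by 212 bases on opposite strands. No source used here gives the strand setting of the counting, so reads there cannot be assigned with certainty.

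Genes of class I peptide processing and its regulators were examined beside the immunoproteasome, 13 genes in all. None was called by limma, 8 lay above 0, and 2 were higher and 1 lower at an unadjusted p under 0.05 (7.04% and 9.07% of all genes). B2m, the light chain of class I molecules, had 29289, 28661 and 29433 normalized reads in wildtype libraries and 34433, 35182 and 34401 in SFR KO libraries, a clear gap between groups (log2 0.25 ± 0.05, limma adjusted p = 0.0522, DESeq2 6.14e-06). With GC and length trends removed the difference was 0.14. Irf1 and Nlrc5, activators of immunoproteasome and class I genes named after their values were seen, had wider spreads, at 0.32 ± 0.19 (limma adjusted p = 0.462) and 0.30 ± 0.16 (0.414), with the SFR KO 1 value of each inside the range of wildtype. T cell marker sums were highest in SFR KO 2 and 3 (506.9 and 435.5), with SFR KO 1 (363.6) inside the wildtype range, but the 4 markers differed. Cd3e and Cd3d were higher in every SFR KO than in every wildtype library (log2 0.74 ± 0.26 and 0.76 ± 0.27), Cd4 overlapped at 0.81 ± 0.30, and Cd8a overlapped at -0.43 ± 0.34, with no limma call. Their part in the differences of class I and immunoproteasome genes was not tested.

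**Figure D4:**
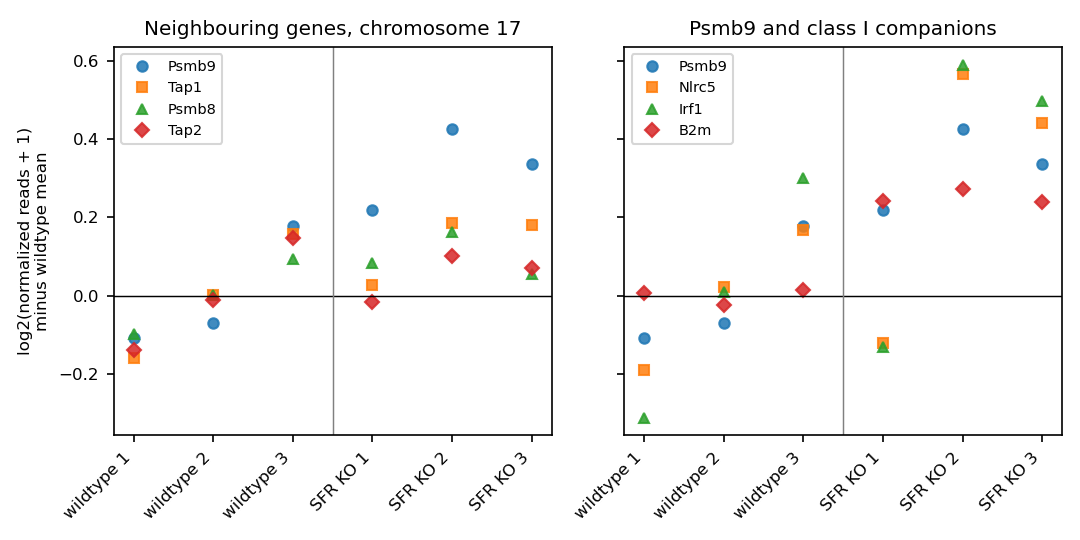
Log2(normalized reads + 1) of each library minus the wildtype mean, for Psmb9 and its neighbours on chromosome 17 (left) and for Psmb9 and the class I companion genes B2m, Irf1 and Nlrc5 (right). Tapbp and Pdia3, lower in SFR KO libraries without overlap, are not shown. Psmb9 and B2m lie higher in all 3 SFR KO than in all wildtype libraries, whereas Tap1, Psmb8, Tap2, Irf1 and Nlrc5 overlap.

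The constitutive core leaned slightly upward without a single call. Of 14 genes, 13 had a log2 difference above 0, with a median of 0.06, 1 was higher at an unadjusted p under 0.05 (7.04% of all genes) and 3 were higher without overlap (9.78% of all genes). All 7 alpha genes, whose rings form the gate of the barrel, lay above 0, between 0.04 and 0.17, but 5 of 7 with GC and length trends removed and 6 of 7 without SFR KO 1. Psma4 differed most, with 4043, 4255 and 4045 normalized reads in wildtype libraries and 4763, 4796 and 4335 in SFR KO libraries. SFR KO 3 lay just above the highest wildtype library, and the log2 difference was 0.17 ± 0.06 (limma adjusted p = 0.193). Psma4 shares 25.6% of its 50-base windows with the model Gm6542, so reads may be split. Psma7 also had groups that did not overlap, at 0.08 ± 0.05, and Psma1, Psma2, Psma3, Psma5 and Psma6 overlapped. The 4 structural beta genes, Psmb1 to Psmb4, lay between 0.03 and 0.09. Psmb2 was nearly identical in the 3 wildtype libraries (4512, 4512 and 4509) and spread in SFR KO libraries (4963, 4610 and 4253) on both sides of them.

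This lean of the core was smaller in some settings. SFR KO 1 was the highest of the 6 libraries for 10 of the 14 core genes, and its median deviation from the gene means was 0.09, against 0.04 in SFR KO 2 and -0.03 in SFR KO 3. Summed over the 14 genes, SFR KO 1 held 72716 normalized reads, SFR KO 2 70403 and SFR KO 3 66556, the last within the wildtype range of 65733 to 67786. Without SFR KO 1, 10 of 14 lay above 0 with a median of 0.04. With the GC trend of each library removed the median was 0.07, and with GC and transcript length trends removed together it was 0.03, with 10 of 14 above 0. The median over all genes tested was 0.0194 with the GC trend removed and 0.0156 with both removed. For the immunoproteasome genes SFR KO 2 was highest in all 3, the median log2 difference was 0.13 without SFR KO 1 and 0.14 with both trends removed, against 0.10 before, and all 3 stayed above 0 in both settings. SFR KO 1 is also the library with the lowest Mki67, as given above; the part of proliferation in the core values was not tested.

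**Figure D5:**
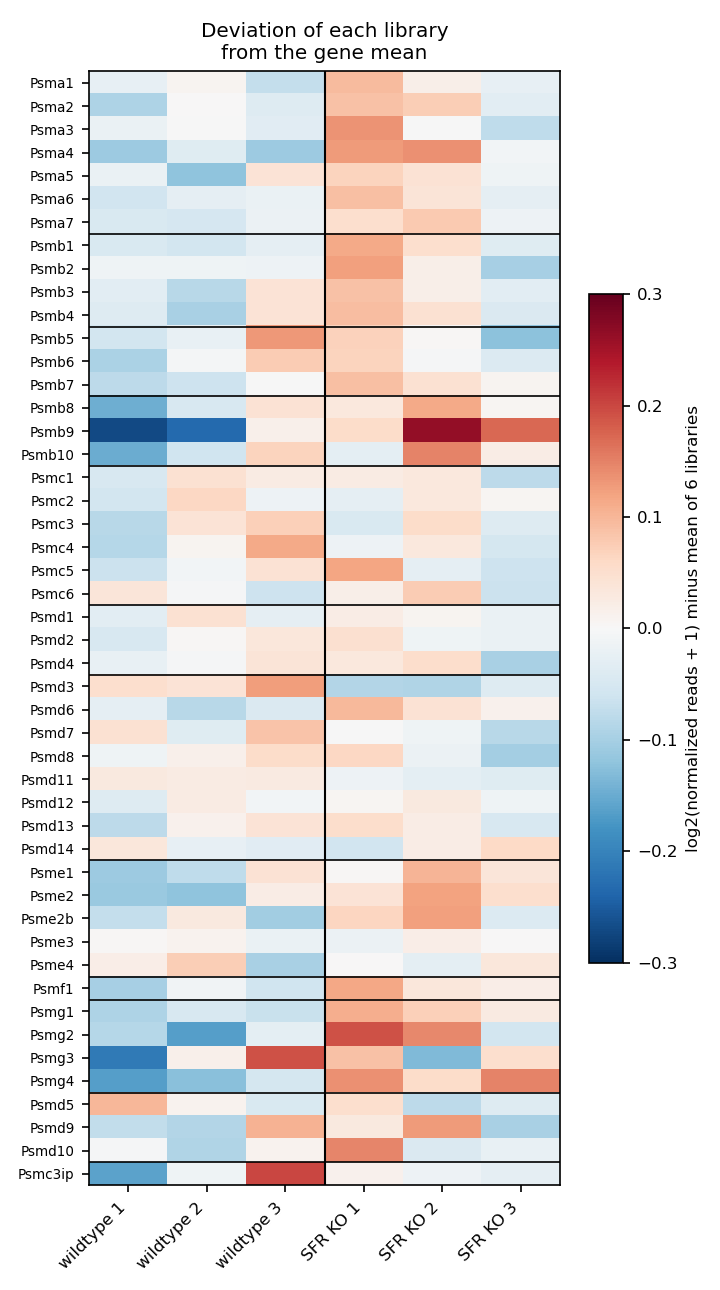
Deviation of log2(normalized reads + 1) in each library from the mean of the 6 libraries, for the 48 tested proteasome genes (rows; black lines separate classes). SFR KO 1 is highest for 10 of the 14 constitutive core genes at the top, and SFR KO 2 is highest for Psmb8, Psmb9 and Psmb10.

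The regulatory particle showed no common direction. Of its 17 genes, 9 lay above 0 and 8 below, with a median log2 difference of 0.0064. None was called, 1 was lower at an unadjusted p under 0.05 (9.07% of all genes), and the 95% intervals of all 17 lay between -0.25 and 0.22. The 6 ATPase genes, Psmc1 to Psmc6, whose ring unfolds substrates, lay between -0.02 and 0.02, and none had separate groups. Psmc6 was at -0.12 with GC and length trends removed. Psmd1 and Psmd2, scaffolds of the base, and Psmd4 lay between -0.0073 and 0.0090.

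Lid genes were divided, with 4 above 0 and 4 below, and ranged from -0.14 to 0.10. Psmd3, a structural lid subunit, had the lowest log2 difference of the 48 tested genes, with 4903, 4872 and 5161 normalized reads in wildtype libraries and 4451, 4449 and 4612 in SFR KO libraries. No SFR KO library reached a wildtype library, yet the log2 difference of -0.14 ± 0.05 missed the threshold (95% interval -0.25 to -0.04, limma adjusted p = 0.199, DESeq2 0.161). With GC and length trends removed it was -0.07. Psmd11, which helps to join the lid to the base, had 4368, 4355 and 4358 in wildtype and 4233, 4191 and 4175 in SFR KO libraries. Its groups were separate because both were very tight, and the difference was only -0.05 ± 0.04 (adjusted p = 0.594).

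Psmd7, the partner of the deubiquitinase Psmd14, had 3756, 3546 and 3861 normalized reads in wildtype libraries and 3632, 3605 and 3434 in SFR KO libraries (log2 -0.06 ± 0.05). Psmd8 had 6594, 6716 and 6914 and then 6943, 6564 and 6195 (-0.04 ± 0.05). Both overlapped between groups. Psmd6 went the other way, with separate groups and a log2 difference of 0.10 ± 0.05 (limma adjusted p = 0.364), while Psmd12, Psmd13 and the deubiquitinase Psmd14 lay between 0.01 and 0.02.

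All 5 alternative activator genes had fitted values above 0, and none was called. Psme1 and Psme2, which form the interferon-inducible activator PA28, stood at log2 differences of 0.10 ± 0.06 (limma adjusted p = 0.439) and 0.14 ± 0.06 (0.256). Psme2 had 3935, 3908 and 4316 normalized reads in wildtype libraries and 4373, 4626 and 4402 in SFR KO libraries, without overlap, and Psme1 overlapped. Per kilobase, Psme1 stood at 1.57 ± 0.0231 times Psme2 in wildtype and 1.52 ± 0.0140 times in SFR KO libraries (SD, n = 3), with no overlap and no test. Psme1 and Psme2 were highest in SFR KO 2, as were the immunoproteasome genes. The same held for 4 of the 5 activator genes, Psme3 included, and for 13 of all 48 tested proteasome genes. Psme2 shares 59.3% of its 50-base windows with Psme2b, a near copy, so the counts of both are uncertain; Psme2b itself was at 0.10 ± 0.10. Psme3, of the nuclear activator PA28 gamma, and Psme4, the PA200 activator, were at 0.0029 (95% interval -0.09 to 0.10) and 0.0040 (-0.12 to 0.13). Psmf1, which encodes the inhibitor PI31, had separate groups at 0.11 ± 0.06 (adjusted p = 0.376).

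Within the name rule, assembly genes of the core had a median log2 difference of 0.16 and those of the regulatory particle 0.04. The gap between these classes was not tested. Psmg4, a chaperone of the alpha ring, had 341.0, 350.8 and 368.7 normalized reads in wildtype libraries and 420.7, 397.4 and 424.3 in SFR KO libraries. The groups were separate, with 0.23 ± 0.09 as the log2 difference (limma adjusted p = 0.268). Psmg2, a partner of Psmg1 in the same step, had 657.8, 622.6 and 683.6 and then 797.1, 770.7 and 671.5 (0.19 ± 0.09, adjusted p = 0.345). Here SFR KO 3 lay within the wildtype range. Psmg1 was at 0.14 ± 0.08 with separate groups, and Psmg3 at 0.0038 ± 0.12. Of the regulatory particle chaperones, Psmd5 had 2170, 2040 and 1963 in wildtype and 2099, 1918 and 1971 in SFR KO libraries, overlapping (-0.04 ± 0.06), and Psmd9 and Psmd10 were at 0.04 ± 0.08 and 0.05 ± 0.07. Levels per kilobase in wildtype were lowest for Psmd9 (411.8 ± 31.3) and highest for Psmd10 (884.9 ± 33.6), and the 4 core chaperones ran from Psmg1 at 541.1 ± 8.55 to Psmg3 at 651.9 ± 90.6. Psmg2, Psmg4 and Psmg3 differed by less than the SD of Psmg3.

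Tissue-restricted subunits were near or at 0. Psma8, which replaces Psma7 in the testis, had between 2 and 10 reads in a library and was not tested, and Psmb11 of the thymic epithelium had 0 reads in all 6. Psmc3ip stood at -0.02 ± 0.10 (limma adjusted p = 0.951).

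Other genes of the pathway gave no limma call either. Of 11 proteasome partners outside the name rule, 6 lay above 0 and 5 below, and 0 were higher and 1 lower at an unadjusted p under 0.05 (7.04% and 9.07% of all genes). The smallest p-values were those of Ecpas, a proteasome adaptor, at a log2 difference of -0.17 ± 0.06 (adjusted p = 0.223), and Txnl1, a proteasome-bound thioredoxin, at 0.10 ± 0.05 (0.340). Among 13 regulators of proteasome genes, 6 lay above 0 and 7 below, and 3 were lower and 0 higher at an unadjusted p under 0.05, the rule that 9.07% and 7.04% of all genes met. Hsf1, the heat shock factor, had 1364, 1214 and 1325 normalized reads in wildtype libraries and 1125, 1060 and 1120 in SFR KO libraries (log2 -0.24 ± 0.07, adjusted p = 0.145). Nfe2l1, which encodes NRF1, had 2508, 2535 and 2451 and then 2103, 2126 and 2350 (-0.19 ± 0.06, adjusted p = 0.173), and the difference was -0.10 with GC and length trends removed. Both had separate groups with SFR KO libraries lower. Of 14 ubiquitin genes, activating enzymes and shuttle factors, 5 lay above 0 and 9 below. Ubqln1, a shuttle factor, was at -0.12 ± 0.05 (adjusted p = 0.299) and Ubb, a ubiquitin gene, at 0.13 ± 0.06 (0.302). Over all 51 of these companion genes, class I genes included, edgeR called 0 and DESeq2 called 2 higher, B2m among them. Of all genes, edgeR called 0.0811% higher and 0.14% lower, and DESeq2 called 1.36% higher and 2.2% lower.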

How the data were processed

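RNA-seq of 6 libraries (3 wildtype, 3 SFR KO) was used as 1 deposited table of signal values, read counts that the authors had normalized to library size. Alignment with STAR 2.5 to GRCm38, counting with featureCounts 1.5 and analysis with DESeq2 1.14.1 are listed in the submitters' processing notes. For the annotation release, strand setting and filters, the sources used here give nothing. The deposited table also holds the authors' log2 fold changes with their errors, a test score and p-values. Whole reads were recovered from every value (100% within 1e-06).

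The 13562 genes averaging 10 normalized reads or more were tested with limma 3.58.1 (lmFit, eBayes with trend; R 4.3.3) on log2(normalized reads + 1), with Benjamini-Hochberg adjustment over all of them and a threshold of 0.05. The model was tested on simulated data. Fold changes on this scale understate those of low genes. Alternatives were pseudocounts of 0.5 and 5, no filter, a minimum mean of 50, TMM scaling, edgeR 4.0.16 and DESeq2 1.42.0 on recovered reads, sample weights, removal of each library's GC and length trends (natural spline, 4 degrees of freedom), and leaving out each library. Transcript lengths and gene positions came from GENCODE M21 (GRCm38), matching 99.5% of genes.

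Values in every library are given for the 6 cutting subunits and for the 5 genes with the largest and the 5 with the smallest log2 difference among those with a mean of at least 200, and within each class the lowest and highest level is named. In each companion list the 2 genes with the smallest p are named, except for 1 gene of the class I list that is not reported here. Psmb2, Tap1, Tap2, Irf1, Nlrc5 and others named beside these were chosen after their values were seen. The members and lists were chosen with earlier results of these data known. Libraries are numbered in deposition order, as names only.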

Additional observations from a re-analysis of the deposited data

How the results depend on the processing

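No proteasome gene was called lower in any setting. The count called higher was 0 in the main analysis, 1 with DESeq2, 1 with sample weights and 0 to 1 when each library was left out. It was Psmb9 each time, at log2 differences of 0.33, 0.38 and, without SFR KO 1, 0.38. For the 51 companion genes the count called higher was 0, and 1 with no filter, 1 at a minimum mean of 50, 2 with DESeq2, 2 with sample weights and 0 to 3 with a library left out, the 3 without SFR KO 1, with B2m and Nlrc5 among them. The count called lower was 1 with sample weights (Hsf1). Of all genes, DESeq2 called 1.36% higher, sample weights 2.0% higher and 2.65% lower, and the fit without SFR KO 1 called 1.58% higher. The median over proteasome genes ran from 0.017 without SFR KO 1 to 0.079 without SFR KO 3. The cause was not tested. Of the 48 tested proteasome genes, 12 turned direction with the GC trend removed, 10 with GC and length trends removed and 9 without SFR KO 1. Over all genes the median moved from -0.0030 to 0.0194 with the GC trend removed and to 0.0156 with both trends removed. The farthest was Psmc6, from 0.02 to -0.10 and -0.12 with these trends removed. Among the genes tabulated under every alternative, Psmb5, Psmb6 and Psmd8 turned. Psmb5 was at 0.052 with the GC trend removed and ran from -0.077 to 0.022 with a library left out. Psmb6 was at -0.00065 with sample weights, -5.5e-05 with GC and length trends removed, and between -0.027 and 0.058 with a library left out. Psmd8 was at 0.017 with the GC trend removed and ran from -0.080 to 0.0023 with a library left out. Over the named proteasome genes and alternatives, 228 values kept their direction and side of the threshold, 9 turned direction and 3, all of Psmb9, passed the threshold. No paired analysis was possible because the labels give the libraries no shared replicate numbers. With 3 libraries a group, differences much under the median 95% half-width of 0.13 could not be resolved.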
